A study of Mus musculus with 8 samples.

Results

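SR proteins and hnRNPs are the main families of RNA-binding proteins that set which exons of a pre-mRNA are kept. The genes described here are the protein-coding mouse genes whose symbol is *Srsf* followed by a digit (11 genes) or begins with *Hnrnp* (20 genes). All 31 reached 0.5 TPM (a level per transcript length, scaled to the same total in every library) in at least 4 of 8 libraries, and so were among the 17177 genes tested. *Srsf12* was the gene nearest to that limit, at 0.76 to 2.1 TPM.

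The libraries are polyadenylated RNA of costal (rib) chondrocytes, released by collagenase from mice that were 7 d old, 4 wild-type and 4 *Mir140*-null. All mice carry the C57BL/6J background. In the null animals the *Mir140* locus, which makes miR-140-5p and the miR-140-3p isomiRs in cartilage, was deleted with CRISPR/Cas9 in zygotes of mixed C57BL/6 and CBA/ca origin, and the founders were backcrossed. Heterozygous crosses then gave separate wild-type and null lines, so that the libraries of each genotype come from a line of its own and a difference between lines cannot be told apart from a difference between genotypes. The labels do not say whether each library comes from 1 animal or a pool, and the p-values cover only the spread between these libraries.

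SR proteins carry RNA recognition motifs and a tail rich in arginine and serine, bind exonic enhancers and help U1 and U2 snRNP to find the splice sites, and several of them also accompany the mRNA to the cytoplasm. hnRNPs coat nascent transcripts, often oppose SR proteins at the same exon, and also act in the stability, export and translation of mRNA. Genes of both families regulate their own level through exons or retained introns that send the transcript to nonsense-mediated decay, and a microRNA lowers its targets through sites in the 3′UTR that pair with its seed.

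A pair of miRNAs lost in the null mice share an arm of the *Mir140* hairpin and differ by 1 base at the 5′ end, which changes the seed. Members of both families carry matches to them. The miRNA from the other arm of the hairpin was neither shown nor searched, because its sequence was missing from the reference used. Whether the genes carry matches to that miRNA was thus not tested. The canonical miR-140-3p.2 lies at chr8:107551288-107551308 on the plus strand (RefSeq, GRCm38.p6), and miR-140-3p.1 begins 1 base later. miR-140-3p.1 is written here as the annotated sequence without its first base. The most read isomiRs in the study's human cartilage run further at the 3′ end. The capitals mark the seed, bases 2 to 8.
miR-140-3p.2: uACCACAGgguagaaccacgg
miR-140-3p.1: aCCACAGGguagaaccacgg

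For each gene, its longest 3′UTR in GENCODE M21 was searched on the transcript strand. For miR-140-3p.1 the sites were CCTGTGGA (8mer), CCTGTGG (7m8) and CTGTGGA (7a1). For miR-140-3p.2 they were CTGTGGTA, CTGTGGT and TGTGGTA, and the run CCTGTGGT holds a 7m8 site of both isomiRs. A miR-140-3p.1 site was found in 11 of the 31 genes (35.5%), against 30.3% of 12975 tested protein-coding genes with a 3′UTR. A miR-140-3p.2 site was also found in 11 of 31 (35.5%), against 24.9%. The median 3′UTR was 1308 bases long for the 31 genes and 1159 for all. These are matches of letters and not measured binding sites. The windows below are 30 bases of the mRNA strand, in mm10 (GRCm38) coordinates of the match, with the match in capitals. *Hnrnpul2* is shown because it rose in the null libraries, and *Hnrnpab* and *Hnrnpk* because theirs are the only 8mer matches among the 31 genes. *Hnrnpc*, *Hnrnpd* and *Srsf12* have a 7m8 match and groups that did not overlap, with *Srsf12* lower in the null libraries. *Srsf10* is the one SR protein gene on a target list. The choice thus leans on the expression values, and other genes with a match are not shown. Among them, *Hnrnpr* has 5 miR-140-3p.1 and 4 miR-140-3p.2 matches in 19419 bases (log2 fold change 0.00). *Hnrnpa3* has 2 and 1 in 4025 bases (0.07).
Hnrnpul2, miR-140-3p.1, chr19:8832521-8832527 (+): tataggtgaatCCTGTGGtgtgggctgtca
Hnrnpab, miR-140-3p.1, chr11:51601111-51601118 (-): tgcagcctggaCCTGTGGAccctggttgta
Hnrnpk, miR-140-3p.1, chr13:58391311-58391318 (-): tggaaaaagttCCTGTGGAtgttttgtgta
Hnrnpc, miR-140-3p.2, chr14:52073389-52073395 (-): gagaataaagaCTGTGGTtctgtccctttt
Hnrnpd, miR-140-3p.2, chr5:99960137-99960143 (-): gtgcagtcgatCTGTGGTcagatgcctgag
Srsf10, miR-140-3p.2, chr4:135869158-135869164 (+): agggggggcccCTGTGGTttggggtagctt
Srsf12, miR-140-3p.2, chr4:33231346-33231352 (+): ctcacacctcgCTGTGGTtaaagtgcttca

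The *Hnrnpul2* and *Srsf10* windows hold the run that both isomiRs match, where the miR-140-3p.2 match starts 1 base after that of miR-140-3p.1. *Hnrnpul1*, not shown, has this run as well. Neither *Srsf10* nor *Hnrnpul1* was called (log2 fold change 0.09 and 0.12, limma adjusted p = 0.636 and 0.405). No match to these letters was present in the longest 3′UTR of *Hnrnpa0* (1517 bases) or *Hnrnpf* (618 bases).

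Of the 31 genes, 4 were higher and 0 were lower in *Mir140*-null chondrocytes by limma on log2(TPM + 1), two-sided, at a p under 0.05 after Benjamini-Hochberg adjustment over all 17177 genes. The 4 were *Hnrnpa0*, *Hnrnpf*, *Hnrnpul2* and *Hnrnpa1*. They make up 12.9% of the 31 genes, where 10.5% of all tested genes were higher and 6.40% lower, so the number called is near the background. Of the tested protein-coding genes, 12.7% were higher. An unadjusted limma p under 0.05 was reached by 13 of the 31 genes (41.9%), where 33.9% of all tested genes reached it. Median-ratio scaling moved the calls over all tested genes from 1797 higher and 1100 lower to 1372 and 1320, and called 2 of the 31 genes higher (*Hnrnpa0* and *Hnrnpf*). All 4 are hnRNP genes (4 of 20, or 20%), and 0 of the 11 SR protein genes were called in either direction, 1 of them (9.09%) with an unadjusted p under 0.05. Whether the families differ was not tested. The median log2 fold change was 0.23 for the hnRNP genes and -0.06 for the SR protein genes, beside 0.04 for the 13118 tested protein-coding genes and -0.01 for all tested genes. In bulk RNA, fewer cells of a type and less RNA per cell cannot be told apart.

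The 4 null libraries all lay above the 4 wild-type libraries for 9 of 20 hnRNP genes (45.0%), where 15.7% of all tested genes and 19.3% of protein-coding genes did so. They all lay below for *Srsf5* and *Srsf12*, 2 of 11 SR protein genes (18.2%), where 10.2% of all tested genes did so. The log2 fold change was above 0 for 16 of 20 hnRNP genes, *Hnrnpr* at 0.00 among them, and for 5 of 11 SR protein genes (45.5%), beside 49.3% of all tested genes and 53.4% of protein-coding genes.

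**Figure D1:**
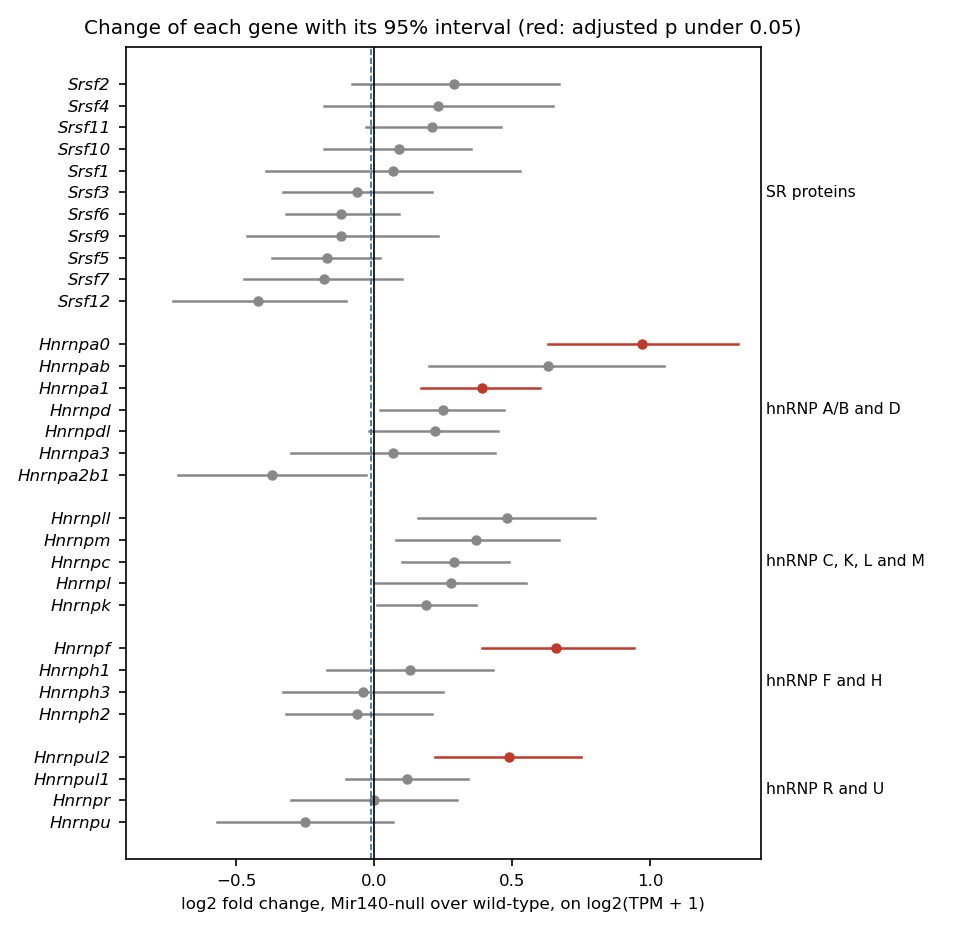
The x axis gives the log2 fold change of *Mir140*-null over wild-type on log2(TPM + 1), with its 95% interval from limma, for each of the 31 genes grouped by family. The 4 genes with an adjusted p under 0.05 are red, from *Hnrnpa1* at 0.39 to *Hnrnpa0* at 0.97, and the dashed line is the median of all tested genes at -0.01.

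The levels of the 31 genes spanned 3 orders of magnitude. *Hnrnph1*, which binds runs of G, was the most abundant at 1814 ± 112 TPM in wild-type chondrocytes (SD, n = 4), rank 43 among 13118 tested protein-coding genes, and it made up 38.6% to 42.2% of the summed hnRNP TPM in the wild-type libraries and 36.3% to 42.6% in the null libraries. *Hnrnpk*, a KH-domain protein that binds runs of C, and *Hnrnpa2b1* followed at ranks 128 and 191. The wild-type ranges of these 3 genes did not overlap each other. Among the SR protein genes, *Srsf11*, *Srsf3*, *Srsf5* and *Srsf2* stood highest, and the ranges of neighbours in this order overlapped. *Srsf12* was the lowest of all, at rank 10941.

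**Figure D2:**
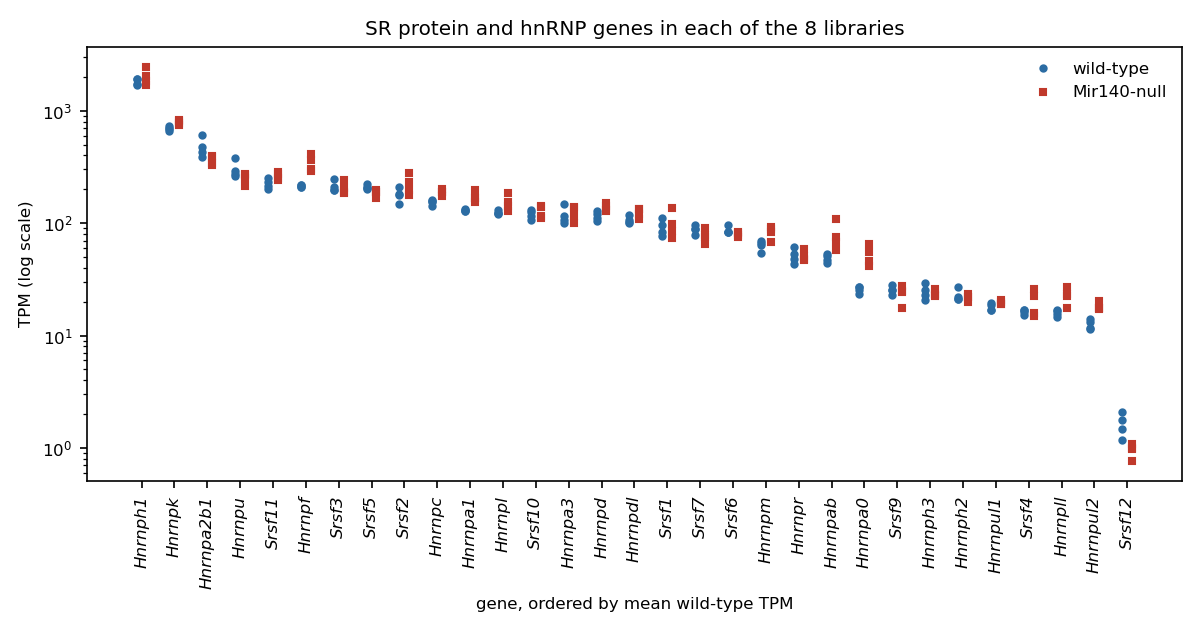
TPM (log scale) of each of the 31 genes in the 4 wild-type (blue circles) and 4 *Mir140*-null (red squares) libraries, ordered by wild-type mean. Wild-type means run from 1814 TPM for *Hnrnph1* to 1.63 TPM for *Srsf12*, and the null points stand clear of the wild-type points for *Hnrnpf*, *Hnrnpa1* and *Hnrnpa0*.

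*Hnrnpa0* encodes an hnRNP that binds AU-rich elements and stabilises inflammatory mRNAs (chr13:58125879-58128556). Its TPM was 25.2, 27.0, 27.2 and 23.6 in wild-type replicates 1 to 4 and 65.6, 55.8, 41.8 and 45.7 in null replicates 1 to 4. Every null library was above every wild-type library, and the null values were the more scattered (coefficient of variation 20.5% against 6.53%). The mean rose from 25.8 ± 1.68 to 52.2 ± 10.7 TPM (SD, n = 4 each), a log2 fold change of 0.97 (SE 0.15, limma adjusted p = 0.00868) and the largest among the 31 genes.

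*Hnrnpf*, a partner of *Hnrnph1* that binds G runs beside exons (chr6:117900324-117925622), had 219, 208, 211 and 219 TPM in the wild-type libraries and 410, 366, 293 and 302 TPM in the null libraries. The wild-type libraries had a coefficient of variation of 2.57%, and the lowest null library was well above them. The log2 fold change was 0.66 (SE 0.12, limma adjusted p = 0.0134), from 214 ± 5.5 to 343 ± 55.3 TPM. *Hnrnph1* did not differ beyond its spread (0.13, interval -0.17 to 0.43, limma adjusted p = 0.51), with 1920, 1736, 1700 and 1900 TPM in wild-type and 2460, 2051, 1680 and 1821 TPM in null libraries. *Hnrnpf* over *Hnrnph1*, a ratio chosen after the values were seen, was 0.114 to 0.124 in the wild-type and 0.166 to 0.179 in the null libraries. Of the other genes of this family, *Hnrnph2* (-0.06, limma adjusted p = 0.769) and *Hnrnph3* (-0.04, limma adjusted p = 0.849) overlapped between genotypes.

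*Hnrnpul2*, of the family of the nuclear scaffold protein *Hnrnpu* and known from the resection of DNA breaks (chr19:8820010-8834143), had 14.1, 11.5, 13.3 and 11.6 TPM in wild-type and 20.3, 17.4, 17.6 and 17.1 TPM in null libraries. The groups did not overlap, and null replicate 1 stood above the other 3 null libraries. The log2 fold change was 0.49 (SE 0.11, limma adjusted p = 0.027), and the call was lost without wild-type replicate 2, 3 or 4 or null replicate 1 or 2 (0.43 to 0.51, limma adjusted p = 0.0561 to 0.0765). None of its relatives was called: the log2 fold change was 0.12 for *Hnrnpul1* (limma adjusted p = 0.405), 0.00 for *Hnrnpr* (limma adjusted p = 0.987) and -0.25 for *Hnrnpu* (interval -0.57 to 0.07, limma adjusted p = 0.244).

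*Hnrnpa1*, the best known splicing silencer and antagonist of *Srsf1* (chr15:103240432-103246692), had 128, 133, 129 and 131 TPM in wild-type and 196, 167, 167 and 155 TPM in null libraries. The wild-type values were the tightest of the 31 genes (coefficient of variation 1.69%), and all null libraries lay above them. The log2 fold change was 0.39 (SE 0.09, limma adjusted p = 0.029).

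The *Hnrnpa1* call was lost without any 1 of the wild-type libraries or null replicate 2 (0.38 to 0.39, limma adjusted p = 0.0578 to 0.0778), and also with a near-identical processed copy added. *Gm10052*, a processed pseudogene (chr9:123689233-123690192), matches the *Hnrnpa1* coding sequence at 100% over 752 of its 1122 bases, so that reads of this stretch can be assigned to either. *Gm10052* was listed at 131, 114, 116 and 115 TPM in wild-type and at 95.4, 91.0, 115 and 103 TPM in null libraries, about as high as *Hnrnpa1* itself in the wild-type libraries. Its mean was 119 ± 8.03 TPM in wild-type and 101 ± 10.3 TPM in null libraries (SD, n = 4), with overlap at 114 to 115 TPM. Summed over *Hnrnpa1* and its 8 copies, the level was 260, 248, 246 and 248 TPM in wild-type and 292, 259, 282 and 258 TPM in null libraries, and the groups overlapped. With the copies added, the log2 fold change of *Hnrnpa1* was 0.12 (SE 0.08, limma adjusted p = 0.314), so for the loci together no difference beyond the spread was detectable. This sum was computed after the values were seen. The same sum left *Hnrnpf*, with 6 copies at 0.21 to 8.35 TPM in all, at 0.62 (limma adjusted p = 0.0152), and *Hnrnpa0* and *Hnrnpul2* have no such copy.

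**Figure D3:**
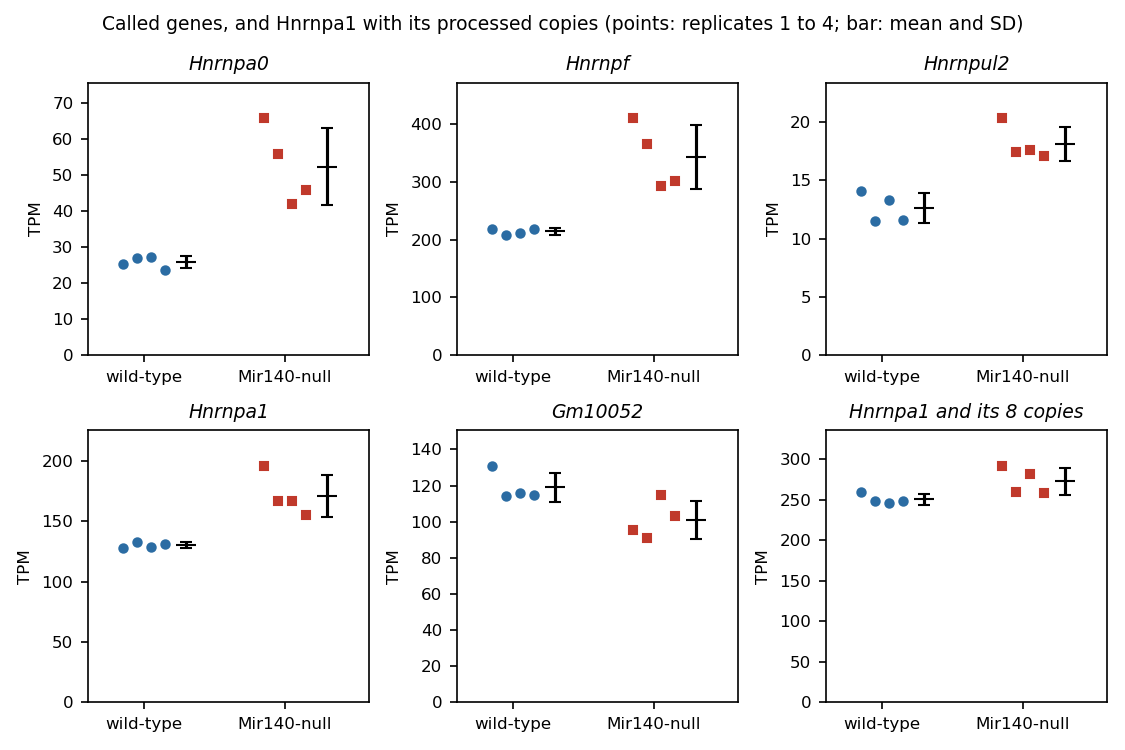
TPM of the 4 called genes, of the processed copy *Gm10052* and of *Hnrnpa1* summed with its 8 copies, in 4 wild-type (blue) and 4 *Mir140*-null (red) libraries, with the mean and SD beside the points and every axis starting at 0. The genotypes are apart for the 4 genes, *Gm10052* has the higher mean in wild-type, and the sum overlaps at 246 to 260 against 258 to 292 TPM.

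The rest of the A/B and D family had values of both signs, and none was called. *Hnrnpab*, which binds both RNA and single-stranded DNA, had 50.5, 46.9, 53.2 and 44.3 TPM in wild-type and 109, 75.1, 68.2 and 58.0 TPM in null libraries. The groups did not overlap, but the null libraries were spread widely, and at 0.63 (SE 0.19) the change had a limma adjusted p of 0.0531. *Hnrnpa2b1*, the closest relative of *Hnrnpa1*, was the only gene of the family with a negative value: 613, 386, 471 and 429 TPM in wild-type against 393, 331, 385 and 344 TPM in null libraries. Wild-type replicate 1 was far above the others, the groups overlapped, and the log2 fold change was -0.37 (interval -0.71 to -0.03, limma adjusted p = 0.122). *Hnrnpa1* over *Hnrnpa2b1*, also chosen after the values were seen and without the copies, was 0.209 to 0.344 in wild-type and 0.434 to 0.505 in null libraries.

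*Hnrnpd* (AUF1, which promotes decay of AU-rich mRNAs) stood at 0.25 with groups that did not overlap (limma adjusted p = 0.115). Its relative *Hnrnpdl* had 118, 99.6, 106 and 102 TPM in wild-type and 133, 133, 120 and 109 TPM in null libraries, which overlap (0.22, limma adjusted p = 0.175). *Hnrnpa3* had 149, 106, 99.6 and 115 TPM in wild-type and 137, 139, 115 and 100 TPM in null libraries, with no separation (0.07, limma adjusted p = 0.787).

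In the group of *Hnrnpc*, *Hnrnpk*, *Hnrnpl*, *Hnrnpll* and *Hnrnpm*, all 5 log2 fold changes were positive, from 0.19 to 0.48, and 0 passed the threshold. All 5 had an unadjusted limma p under 0.05, as did 33.9% of all tested genes. *Hnrnpll*, known for exon skipping in T cells, was closest (0.48, limma adjusted p = 0.0508), followed by *Hnrnpc*, which binds U runs (0.29, limma adjusted p = 0.0514). *Hnrnpk* had 728, 682, 698 and 662 TPM in wild-type and 811, 827, 780 and 741 TPM in null libraries. The groups did not overlap, and the difference was small (0.19, interval 0.01 to 0.37, limma adjusted p = 0.128). *Hnrnpm* and *Hnrnpl*, which bind GU-rich and CA-rich RNA, had 0.37 and 0.28 (limma adjusted p = 0.0799 and 0.143).

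The SR protein genes gave no call. The largest of the 5 positive values was that of *Srsf2* (SC35, the marker of nuclear speckles), at 0.29 (interval -0.08 to 0.67, limma adjusted p = 0.246), with 210, 147, 182 and 179 TPM in wild-type and 277, 231, 199 and 178 TPM in null libraries. *Srsf11* had 254, 234, 216 and 200 TPM in wild-type and 272, 287, 251 and 240 TPM in null libraries, which overlap (0.21, interval -0.03 to 0.46, limma adjusted p = 0.19). *Srsf1*, the founding SR protein, had a wide interval (0.07, -0.39 to 0.53), since null replicate 1 stood at 135 TPM and null replicate 4 at 73.6 TPM. *Srsf4* ran from 14.8 to 25.8 TPM in the null libraries (0.23, limma adjusted p = 0.397).

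*Srsf5* had 222, 203, 208 and 204 TPM in wild-type and 190, 167, 196 and 189 TPM in null libraries. All null libraries were below all wild-type libraries, by a small margin, and the log2 fold change was -0.17 (interval -0.37 to 0.02, limma adjusted p = 0.19). *Srsf12* had 1.18, 2.1, 1.77 and 1.46 TPM in wild-type and 0.76, 0.996, 0.976 and 1.08 TPM in null libraries, also without overlap (-0.42, limma adjusted p = 0.0708). At so low a level, adding 1 to the TPM before taking logs shrinks the difference, and the plain ratio of the mean TPM was 0.59. *Srsf3* and *Srsf7*, both also adaptors of mRNA export, had -0.06 and -0.18 (limma adjusted p = 0.76 and 0.322). *Srsf6* was at 82.8 to 95.7 TPM in wild-type and 75.4 to 82.9 TPM in null libraries, and *Srsf9* at 22.8 to 28.0 TPM in wild-type and 17.5 to 27.6 TPM in null libraries. Both overlapped between genotypes (-0.12 each, limma adjusted p = 0.389 and 0.619).

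*Srsf3* also has a processed copy, *Gm9761*, identical at 99.6% over 492 of 495 coding bases. *Srsf3* had 246, 198, 209 and 199 TPM in wild-type and 188, 185, 242 and 205 TPM in null libraries, and its 2 copies together were listed at 15 to 35.4 TPM in wild-type and 30.4 to 56.3 TPM in null libraries. With the copies added, the log2 fold change of *Srsf3* was 0.01 (limma adjusted p = 0.947).

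Summed TPM of the 20 hnRNP genes was 4969, 4297, 4345 and 4500 in wild-type and 5774, 5103, 4627 and 4562 in null libraries, a ratio of means of 1.11 with groups that overlap. For the SR protein genes the sums were 1409, 1191, 1231 and 1196 in wild-type and 1414, 1304, 1300 and 1183 in null libraries, a ratio of 1.03. Null replicate 1 was the highest null library for 18 of the 31 genes and null replicate 4 the lowest for 18, while wild-type replicate 1 was the highest wild-type library for 22.

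**Figure D4:**
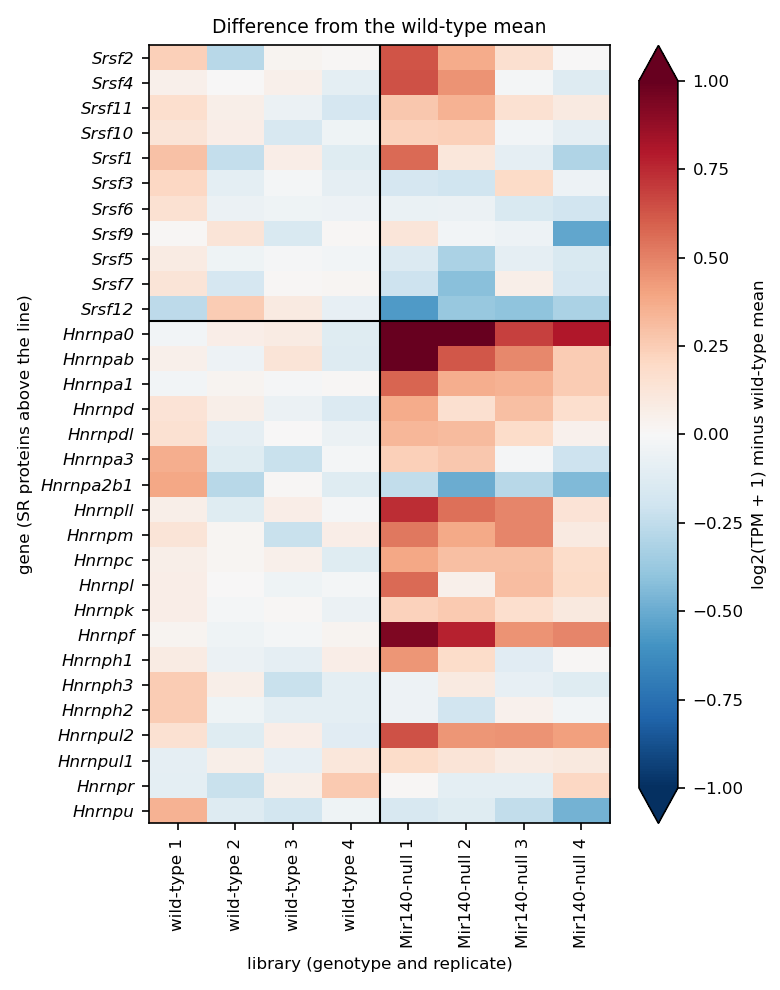
Each cell is the log2(TPM + 1) of a gene in a library minus the wild-type mean of that gene (red higher, blue lower, colours end at 1 and -1), with SR protein genes above the horizontal line and null libraries to the right of the vertical line. The median over the 20 hnRNP genes was 0.38, 0.26, 0.24 and 0.12 in null replicates 1 to 4, and over the 11 SR protein genes it was 0.12, -0.03, -0.03 and -0.15.

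Several features of the libraries moved with genotype. The share of TPM from mitochondrially encoded genes was 4.06% to 6.99% in wild-type and 8.41% to 10.1% in null libraries. At least 0.5 TPM was reached by 17128 to 17950 genes in wild-type libraries, by 15800 and 16056 in null replicates 1 and 2, and by 17435 and 16991 in null replicates 3 and 4. The *Mir140* gene itself had 8.86 TPM in the library labelled null replicate 2 and 0 in the other 7 libraries, wild-type included. Its TPM thus do not check the genotypes, which the authors checked in the mice by ear-notch PCR and Sanger sequencing. Without null replicate 2, *Hnrnpa0* and *Hnrnpf* were called as before. Without both null replicates 1 and 2, *Hnrnpa0* (0.74, limma adjusted p = 0.0356) and *Hnrnpf* (0.47, limma adjusted p = 0.0416) were still called, and *Hnrnpul2* and *Hnrnpa1* were not (0.43 and 0.30, limma adjusted p = 0.113 and 0.10). The summed TPM of 15 chondrocyte markers was 71637 to 88214 in wild-type and 54980 to 76023 in null libraries, with 4 of the 15 called lower (*Col9a1*, *Col9a3*, *Col11a1*, *Hapln1*) and 2 higher (*Acan*, *Ucma*). The sums of the other marker lists were 3524 to 6395 against 882 to 5611 TPM for fibroblast or perichondrium (7 genes, *Dcn* called lower and *Pdgfra* higher), 646 to 1854 against 257 to 1725 TPM for erythroid cells (6 genes), 63.1 to 96.7 against 33.9 to 57.7 TPM for skeletal muscle (8 genes), 21.2 to 38.5 against 16.8 to 30.8 TPM for macrophages or leukocytes (7 genes), 9.42 to 16.9 against 3.02 to 14.1 TPM for osteoblasts (5 genes) and 5.56 to 20.9 against 3.41 to 27.1 TPM for endothelium (5 genes). None of these markers was at 0 in every library, and the part of other cells in the hnRNP values was not tested.

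The study's lists of predicted targets of the miR-140 products come from the human version of TargetScan and were matched here to mouse genes by symbol. They hold 10 of the 31 genes, of which 3 were called higher (*Hnrnpa0*, *Hnrnpa1* and *Hnrnpul2*), with a median log2 fold change of 0.20. A listed gene need not have a match in the mouse 3′UTR searched, and *Hnrnpa0* and *Hnrnpa2b1* have none for either miR-140-3p isomiR. Of the 21 genes on no list, 1 was called higher (*Hnrnpf*, 4.76%), with a median of 0.12. Whether listed and unlisted genes differ was not tested. The 7 genes on the miR-140-3p.1 list were *Hnrnpa0*, *Hnrnpa1*, *Hnrnpa2b1*, *Hnrnpab*, *Hnrnpdl*, *Hnrnpk* and *Hnrnpul2*, and 5 of them had null libraries all above wild-type (71.4%), beside 131 of the 522 tested genes on the whole list (25.1%). Of those 522 genes, 93 were called higher (17.8%). The miR-140-3p.2 list holds *Hnrnpa1*, *Hnrnpa3*, *Hnrnpul2* and *Srsf10*, beside 71 of 384 genes called higher over the whole list (18.5%). *Srsf10* had 131, 125, 106 and 116 TPM in wild-type and 139, 141, 116 and 112 TPM in null libraries, with no separation (0.09, limma adjusted p = 0.636). *Hnrnph3*, the only gene of the 31 on the miR-140-5p list, had 29.3, 25.6, 20.9 and 22.8 TPM in wild-type and 23.5, 26.1, 23.1 and 22.4 TPM in null libraries. Over that whole list, 90 of 356 tested genes were called higher (25.3%).

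In the annotation, 9 of 11 SR protein genes (81.8%) and 10 of 20 hnRNP genes (50.0%) have a transcript marked for nonsense-mediated decay, against 28.3% of tested protein-coding genes. *Hnrnpa1* has 2 such transcripts among 5, while *Hnrnpa0*, with 1 transcript in all, *Hnrnpf* and *Hnrnpul2* have none. The families also have more annotated transcripts, with a median of 7 per SR protein gene and 8 per hnRNP gene, against 5. A retained-intron transcript is annotated for 72.7% and 70.0% of them, against 57.9% of tested protein-coding genes. The deposited values are per gene, so coding and decay-bound transcripts of these genes cannot be told apart.

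The other components of the splicing machinery were taken from 8 lists with 110 tested genes, of which 24 were called higher (21.8%) and 2 lower (1.82%), where 10.5% and 6.40% of all tested genes were. Of the tested protein-coding genes, 12.7% were called higher. With the filter at a mean of 5 TPM, 27 of 101 list genes were called higher (26.7%, where 17.0% of all genes were). The number called higher fell to 12 with median-ratio scaling (10.9%, where 8.02% of all genes were called). With quantile normalization it was 10 (9.09%, where 9.15% were). Without both null replicates 1 and 2 it was 1 (0.909%, where 2.34% were). It was 9 to 14 (8.18% to 12.7%, where 4.48% to 7.55% were) without 1 wild-type library or null replicate 1 or 2. Without null replicate 3 and 4 it was 21 and 27 (19.1% and 24.5%, where 9.3% and 8.56% were). It was 14 without a filter (12.4%, where 2.67% were) and 8 with the replicate block (7.27%, where 3.91% were). With RUVg it was 10 (9.09%, where 5.7% were). It rose to 33 without mitochondrially encoded genes (where 12.4% of all genes were called). With 1 and 2 RUVr factors it was 37 and 41 (33.6% and 37.3%, where 14.3% and 15.8% were). These factors come from the residuals of the reported fit and leave the log2 fold changes unchanged. Among the U1 and U2 snRNP and 3′ splice site factors, 7 of 17 were called higher (41.2%), all 17 log2 fold changes were positive and the median was 0.37. With median-ratio scaling 3 of the 17 were called and 15 were positive, and with quantile normalization it was 3 and 13. *Sf3b3* and *Sf3a2*, subunits of the complexes with which U2 snRNP holds the branch site, rose from 22.4 ± 3.0 to 39.4 ± 5.81 TPM and from 12.1 ± 1.91 to 27.0 ± 7.25 TPM (0.78 and 1.07, limma adjusted p = 0.0133 and 0.0137, SD, n = 4). *Sf3b5* followed (0.60, limma adjusted p = 0.0171).

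Of the exon junction complex and nonsense-mediated decay factors, 5 of 15 were called higher (33.3%) and 1 lower, and 2 were called higher with either of those scalings. *Smg8* and its partner, the kinase *Smg1*, rose by 1.01 and 0.74 (limma adjusted p = 0.0115 and 0.013), and *Rbm8a* by 0.53 (limma adjusted p = 0.0312). *Upf3b*, which links the junction complex to decay, was lower (-0.59, limma adjusted p = 0.0473). Over 22 alternative fits, *Smg8* and *Smg1* were called in 21 each, *Rbm8a* in 10 and *Upf3b* in 6.

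Among 28 other splicing regulators, 6 were called higher and 1 lower (median 0.27). *Ptbp1* (hnRNP I by its older name, a repressor that binds CU-rich RNA) rose from 277 ± 7.64 to 381 ± 31.3 TPM (0.46, limma adjusted p = 0.0144, SD, n = 4). *Syncrip* (hnRNP Q) and *Mbnl2* rose by 0.57 and 0.55 (limma adjusted p = 0.0167 and 0.018), and *Tia1* was lower (-0.68, limma adjusted p = 0.0362). In the 22 alternative fits, *Ptbp1* was called in 20, *Syncrip* and *Mbnl2* in 18 each and *Tia1* in 11.

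The remaining lists were closer to the background. Of the kinases and phosphatases that act on SR proteins, 1 of 11 was called (*Ppp1cc*, 0.59, limma adjusted p = 0.0115). Of the import and export partners it was 1 of 6 (*Tnpo3*, the importin of SR proteins, 0.62, limma adjusted p = 0.0112), and of the SR-related proteins 2 of 13 (*Sfswap*, 0.70, and *Son*, 0.43, limma adjusted p = 0.0196 and 0.0289). The Sm core gave 1 of 7 (*Snrpd1*, 0.55, limma adjusted p = 0.024) and the tri-snRNP 1 of 13 (*Txnl4a*, 0.64, limma adjusted p = 0.0314). *Ppp1cc* was called in all 22 alternative fits, *Tnpo3* in 21, *Sfswap* in 19, *Snrpd1* in 12, *Son* in 10 and *Txnl4a* in 9.

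**Figure D5:**
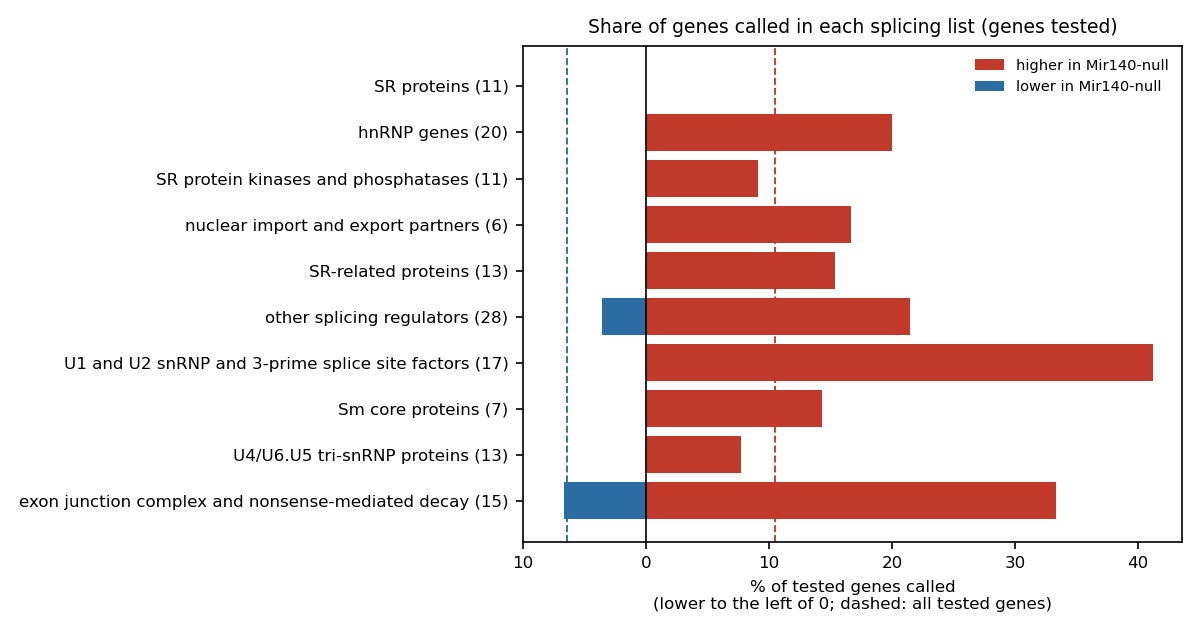
Bars give the percentage of tested genes called higher (red, to the right) or lower (blue, to the left) at a limma adjusted p under 0.05 in each list, with the number tested in parentheses and dashed lines at the 10.5% and 6.40% of all tested genes. The U1 and U2 list reaches 41.2%, the hnRNP genes 20% and the SR protein genes 0.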

How the data were processed

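RNA-seq of rib chondrocytes gave 4 wild-type and 4 *Mir140*-null libraries, named by the labelled genotype. The deposited values are TPM for each Ensembl identifier, which the authors made with Salmon on the mm10 transcriptome after FastQC 0.11.7 (Salmon version and the summing of transcripts per gene: not given in the sources used here). RUVSeq and DESeq2, which the authors applied afterwards, are not part of the deposited TPM, so limma on log2 values replaced them. Identifiers on several lines were counted once. The authors give only a lower bound on the reads per sample and not the depth of each library, so no counting interval could be given.

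A gene entered the fit if 4 or more of the 8 libraries reached 0.5 TPM. limma 3.58.1 (R 4.3.3) was run on log2(TPM + 1), with a mean-variance trend and Benjamini-Hochberg adjustment over 17177 genes. The fit was checked on simulated data with noise independent between genes and libraries, so effects shared by the genes of a library were not covered. Symbols, 3′UTRs and processed pseudogenes came from GENCODE M21, and copies were matched with blastn (at least 95% identity over at least 300 bases).

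The 31 genes, the lists and the tests were chosen with earlier results of these data known. Named were all 31 genes, and in each other list at most the 3 called genes with the smallest p in each direction. Alternatives were a pseudocount of 0.1, no filter, a mean of 5 TPM, median-ratio and quantile scaling, rescaling over nuclear protein-coding genes, a replicate block, 1 or 2 RUVr factors, 1 RUVg factor, quality weights and leaving out each library. Rescaling without mitochondrially encoded genes, leaving out 2 null libraries, adding processed copies and running the other lists under every alternative were chosen after seeing the data. A sequence window is not reported here.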

Additional observations from a re-analysis of the deposited data

Results flagged for a closer look

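For 3 of the 62 sets of 4 libraries examined (31 genes in 2 genotypes), 1 library lay so far from the other 3 that the gap took up most of the range of the set. Chance gives about 1 in 20 such sets. *Hnrnph2* was at 27.0 TPM in wild-type replicate 1, against 21 to 21.9 TPM in the other wild-type libraries, and its sign turned without that library. *Srsf6* was at 95.7 TPM in wild-type replicate 1, against 82.8 to 84.1 TPM in the others. *Hnrnpul2* reached 20.3 TPM in null replicate 1, against 17.1 to 17.6 TPM in the other null libraries, and without it *Hnrnpul2* was no longer called.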

How the results depend on the processing

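*Hnrnpa0* and *Hnrnpf* were called higher in all 22 alternatives, while *Hnrnpul2* was called in 12 and *Hnrnpa1* in 10 of 22. The number of the 31 genes called higher was 2 with the replicate block, median-ratio scaling, quantile normalization, 1 RUVg factor or without both null replicates 1 and 2. It was 7 with the mean filter of 5 TPM, the rescaling without mitochondrially encoded genes, or 1 or 2 RUVr factors, when *Hnrnpab*, *Hnrnpc* and *Hnrnpll* passed as well. With each library left out it ranged from 2 to 7: 2 without wild-type replicate 2, 3 or 4 or null replicate 2, and 7 without null replicate 4. The 2 RUVr factors called 2 genes lower, *Hnrnpa2b1* and *Srsf12* (1 SR protein gene). RUVr factors were taken from the residuals of the reported fit, so they leave each log2 fold change unchanged and alter only the error around it. The RUVg control genes were all tested genes but the 5000 with the smallest p in that fit. These alternatives are thus not independent of it. The SR protein median was -0.20 and their summed ratio 0.94 under quantile normalization, and that median was positive with the mean filter (0.01, *Srsf12* not tested), with copies added (0.01), without wild-type replicate 1 (0.01) and without null replicate 4 (0.02). Over all tested genes, 1797 were called higher and 1100 lower, against 671 and 454 with the replicate block, 977 and 539 without a filter, 979 and 426 with RUVg, 2460 and 2016 with 1 RUVr factor, 2708 and 2153 with 2, 1372 and 1320 with median-ratio scaling, 386 and 234 without both null replicates 1 and 2, and 755 to 1551 and 337 to 1251 with each library left out. The labels do not say whether same-numbered libraries are pairs. Their deviations from the group means correlated at 0.0308, 0.016, 0.0688 and -0.00911, which shows no shared signal but cannot exclude pairing.

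Signs that turned belong to genes called under none of these settings. Under quantile normalization they were *Hnrnpa3* (-0.09), *Srsf1* (-0.11) and *Srsf10* (-0.07), and *Hnrnpr*, at 0.00 as reported, was -0.15 there and ran from -0.07 to 0.09 with each library left out. With RUVg they were *Hnrnpa3* (-0.11), *Hnrnph1* (-0.05), *Srsf1* (-0.17), *Srsf10* (-0.06), *Srsf4* (-0.04) and *Srsf3* (0.05). Without both null replicates 1 and 2 they were *Hnrnpa3* (-0.11), *Hnrnph1* (-0.05), *Hnrnph2* (0.01), *Srsf1* (-0.19), *Srsf10* (-0.06), *Srsf3* (0.07) and *Srsf4* (-0.08). Quality weights turned *Srsf1* (-0.02) and *Srsf3* (0.01), the rescaling without mitochondrially encoded genes *Hnrnph3* (0.01), and added copies *Srsf3* (0.01). With each library left out, *Srsf1* ran from -0.09 (without null replicate 1) to 0.20 and was -0.01 without wild-type replicate 2. *Srsf3* ran from -0.14 to 0.01 (without wild-type replicate 1). *Hnrnph2* and *Hnrnph3* reached 0.03 and 0.04 without wild-type replicate 1, and *Srsf9* reached 0.02 without null replicate 4. The cause was not tested. TPM carry no read counts, so depth sets no stated limit.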
